A study of Homo sapiens with 6 samples.

Results

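The genes described here are chaperones, disulfide isomerases, degradation factors and stress regulators of the endoplasmic reticulum (ER), the compartment in which secreted and membrane proteins fold. They were taken by name from a list of 33, drawn up by function, with earlier results of these data known. Of these, 31 were matched to the 33644 genes of the authors' deposited table, and HSPA5 (the ER Hsp70, BiP) and DERL3 were not analysed here. The series set HEK293T cells, a human embryonic kidney line carrying the SV40 large T antigen, against a derivative labelled alt-LAMA3 KO, with 3 samples of each. Both were grown in DMEM with serum, carry no treatment in the labels and are labelled day 0, and the knockout genotype is the only labelled difference between them. Neither the number of clones behind the knockout line nor whether samples of a group were separate cultures is stated, so p-values may measure technical spread only. All changes are log2 fold changes from 1 deposited comparison whose groups its header does not name, and each adjusted p is that of its deposited Wald test after Benjamini-Hochberg adjustment. The mean normalized count is the authors' average, over the libraries, of counts scaled for depth. Positive values mean higher expression in what is called here the numerator group, relative to a denominator group, and no genotype is assigned to them.

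The unfolded protein response adjusts folding capacity to the load of new protein in the ER. IRE1 (encoded by ERN1) removes a short intron from the XBP1 mRNA and so switches the protein made from it to an active transcription factor, ATF6 is released from its membrane by proteases, and PERK slows translation through eIF2alpha and favours ATF4. XBP1 and ATF6 act on chaperone, isomerase and degradation genes through promoter elements, some of which also bind the factor NF-Y. Secretory cells such as plasma cells depend on the IRE1 and XBP1 branch.

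The labelled cell type was checked against marker genes before any result was read. Of 13 genes typical of HEK293-derived cells in the table, KRT19, NEFL, NEFM and SALL1 were listed at 0, while the mean normalized count was 54717 for VIM, which many cell types express, 855 for NEFH and 60.6 for CKB in the authors' deposited table. The rest of that list, KRT8, KRT18, PAX2, LHX1, CDH2 and EPCAM, had means from 0.829 (PAX2) to 7.94 (LHX1) in the authors' deposited table. A gene listed at 0 need not be unexpressed, since widely expressed genes such as ATF6B and EDEM2 are also listed at 0. The T-cell co-receptor gene CD8A had a mean normalized count of 27074 and CD3E one of 13003 in the authors' deposited table. CD247 (13033), CD3D (4959) and LAT (3579) of the T-lymphocyte list also had high means in the authors' deposited table. Also on the T-lymphocyte list, CD28 (49.6), TCF7 (6.66), CD5 (1.87) and CD4 (1.83) had low means in the authors' deposited table. The levels of CD8A and CD3E go against the labelled cell type, and the groups are not called HEK293T cells below. LAMA3, the locus that names the knockout, had a mean of 19.0 and a log2 fold change of -0.62 (adjusted p = 0.578, SE 0.69) in the authors' deposited table, which does not tell the groups apart. Over all genes tested, 14.8% were lower in the numerator group and 14.7% higher. Among genes of the T-lymphocyte list, 10 of 14 tested were lower in the numerator group and 0 were higher, with a median log2 fold change of -0.62 (LAT at -1.19 and CD8A at -0.32 in the authors' deposited table). These genes moved in the same direction as most ER genes that changed, and their part in the results below was not tested. Of the genes that define B and plasma cells, several were at or near 0, with PAX5 and MS4A1 listed at 0 and mean normalized counts of 0.568 for TNFRSF17 and 0.248 for JCHAIN in the authors' deposited table. Of the 5 tested genes of that list, BLK was higher and MZB1 and CD79B were lower, while monocyte and macrophage genes had 1 of 6 higher and 2 lower, and fibroblast genes 1 of 5 higher and 1 lower. These counts rest on 5 or 6 tested genes per list and were not tested against the shares over all genes. In bulk RNA, fewer cells of a type and less RNA per cell cannot be told apart.

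The stretch of XBP1 that IRE1 removes is shown first because ERN1 had the largest change past the threshold and XBP1 is the mRNA that it cuts. It lies in exon 4 of the unspliced transcript, inside the coding sequence, on the minus strand at chr22:28796104-28796169 (GRCh38, GENCODE 29), with the removed bases in capitals and 20 bases on each side in lower case.
XBP1: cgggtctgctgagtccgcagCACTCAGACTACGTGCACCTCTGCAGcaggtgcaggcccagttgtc
The 26 bases in capitals are not a multiple of 3, so that their removal shifts the reading frame, from 261 codons in the unspliced transcript to 376 in the spliced one. Annotated spliced transcripts place the boundaries either here or 2 bases further on, with the same product, since the bases at both ends repeat. The table gives 1 value per gene and does not separate the spliced from the unspliced form.

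Most of the members that changed were lower in the numerator group. Of the 31 members tested, 13 (41.9%) were lower at an adjusted p under 0.05, 1 (3.23%) was higher and 17 did not pass. Over all 13957 genes tested, 14.8% were lower and 14.7% higher, and 29.5% passed in either direction. The members' median log2 fold change was -0.27, against 0.00 for all tested genes. The members were more abundant than most genes, so counts are also given above a level. Above a minimum of 72.0 mean normalized counts (5 per 1000000 of the summed means), 13 of 23 members were lower and 1 higher, against 21.6% and 21.0% of 8312 genes. At that level the medians were -0.33 for the members and -0.01 for all genes. The median standard error there was 0.11 for the members and 0.14 for all genes, so these shares do not rest on equal precision. The 8 members below it, DNAJC3, DNAJB9, SDF2L1, ATF6, CREB3L2, PDIA4, SEL1L and SEC61B, had standard errors from 0.37 to 3.75 and none passed.

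**Figure D1:**
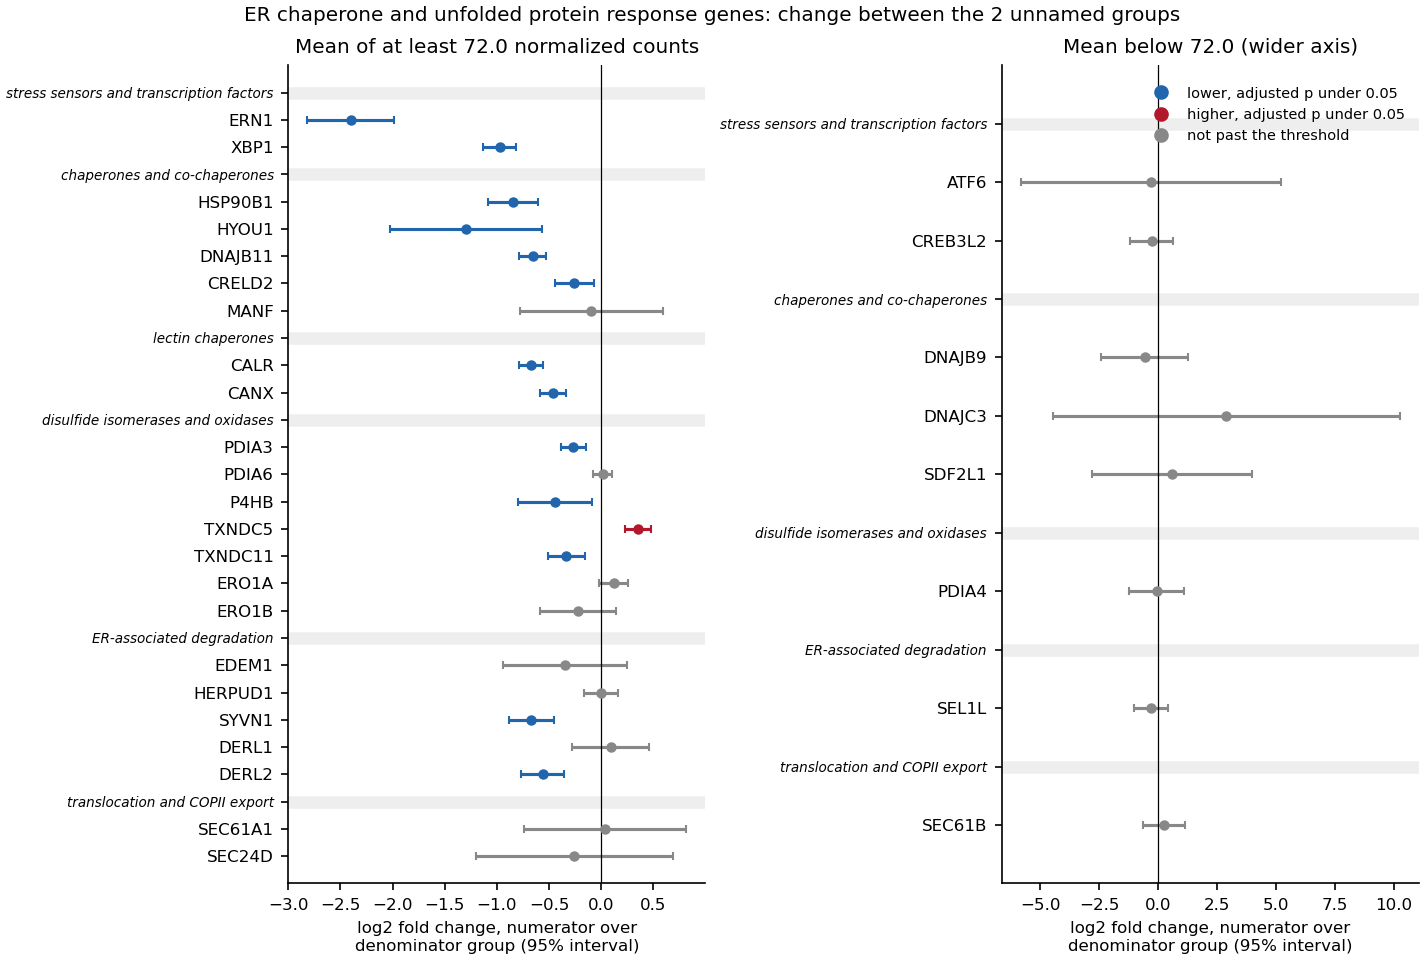
Log2 fold change (numerator over denominator group) of each member with its 95% interval, grouped by role, for the 23 members with a mean of at least 72.0 (left) and the 8 below it (right, on a wider axis). The 13 lower members (blue) include both lectin chaperones and both stress regulators of the left panel. TXNDC5 (red) is the 1 higher member, and every interval on the right spans 0.

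Both stress regulators with a mean of at least 72.0 fell, against 21.6% lower among all genes at that level, and the sensor fell most. ERN1 encodes the kinase and endoribonuclease IRE1 alpha (ENSG00000178607.15, chr17:64039142-64130819, minus strand, GRCh38). Its mean normalized count was 193 and its log2 fold change -2.40 (adjusted p = 4.11e-28, SE 0.21) in the authors' deposited table, which is 5.29-fold lower in the numerator group. By size this placed ERN1 at rank 38 among the 4253 genes with a mean of at least 72.0 and a fold change below 0. XBP1 (ENSG00000100219.16, chr22:28794555-28800597, minus strand), the substrate of that endoribonuclease, had a mean normalized count of 2553 and a log2 fold change of -0.97 (adjusted p = 2.61e-32, SE 0.08) in the authors' deposited table, 1.96-fold lower. The 95% intervals, -2.82 to -1.99 for ERN1 and -1.13 to -0.82 for XBP1, did not overlap. ERN1 and XBP1 were also the only members lower when the deposited errors were tested against a 1.5-fold change, a test that called 2.31% of all genes lower.

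The other regulators were too scarce to judge. ATF6, the membrane-bound transcription factor of the second branch, had a mean normalized count of 2.78 and a log2 fold change of -0.31 (adjusted p = 0.959, SE 2.82) in the authors' deposited table. CREB3L2, a relative of ATF6 that is also activated by proteolysis, had a mean of 28.4 and a log2 fold change of -0.27 (adjusted p = 0.745, SE 0.46) in the authors' deposited table. Its 95% interval ran from -1.18 to 0.64, so that a fall as large as that of XBP1 was not detectable with this error.

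Among chaperones and co-chaperones of the ER lumen, 4 of 8 tested were lower and 0 higher, against 14.8% and 14.7% of all tested genes. HYOU1, an Hsp70-like protein that acts as an exchange factor for BiP, had a mean normalized count of 80.9 and a log2 fold change of -1.30 (adjusted p = 0.00244, SE 0.37) in the authors' deposited table. HSP90B1, the ER Hsp90 known as GRP94, had a mean normalized count of 805 and a log2 fold change of -0.84 (adjusted p = 6.53e-11, SE 0.12) in the authors' deposited table. HSP90B1 fell with a narrower interval (-1.08 to -0.61) than HYOU1 (-2.02 to -0.57), and the intervals overlap. DNAJB11, a J-domain co-chaperone of BiP, had a mean normalized count of 1856 and a log2 fold change of -0.66 (adjusted p = 6.29e-21, SE 0.07) in the authors' deposited table. CRELD2, a secreted ER stress protein, was the smallest fall of this role, with a mean of 635 and a log2 fold change of -0.26 (adjusted p = 0.0246, SE 0.10) in the authors' deposited table. MANF, a stress-induced ER protein that binds BiP, had a mean normalized count of 167 and a log2 fold change of -0.10 (adjusted p = 0.889, SE 0.35) in the authors' deposited table. The co-chaperone genes DNAJB9, DNAJC3 and SDF2L1 had means of 6.54, 11.7 and 2.36 and log2 fold changes of -0.57 (standard error 0.95), 2.90 (standard error 3.75) and 0.60 (standard error 1.72) in the authors' deposited table. None of these passed, and intervals such as -4.45 to 10.26 for DNAJC3 carry no direction.

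Both lectin chaperones, which hold newly made glycoproteins through their trimmed sugars, fell. The share lower over all tested genes was 14.8%, and this role holds only 2 genes. CALR (calreticulin, ENSG00000179218.13, chr19:12938578-12944489, plus strand) had a mean normalized count of 14418, the highest of the list, and a log2 fold change of -0.67 (adjusted p = 1.01e-27, SE 0.06) in the authors' deposited table. CANX, its membrane-bound relative calnexin, had a mean normalized count of 4569 and a log2 fold change of -0.46 (adjusted p = 4.75e-12, SE 0.06) in the authors' deposited table. The fall was 1.60-fold for CALR and 1.38-fold for CANX, with 95% intervals of -0.79 to -0.56 and -0.59 to -0.34 that overlap slightly.

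The disulfide isomerases and oxidases were the 1 role with changes in both directions, 3 of 8 lower and 1 higher. The shares over all tested genes were 14.8% and 14.7%, and the difference from them was not tested. TXNDC11, a thioredoxin-domain protein of the ER, had a mean normalized count of 1992 and a log2 fold change of -0.33 (adjusted p = 0.00145, SE 0.09) in the authors' deposited table. PDIA3 (ERp57), the isomerase that works with calnexin and calreticulin, had a mean normalized count of 8786 and a log2 fold change of -0.27 (adjusted p = 6.83e-05, SE 0.06) in the authors' deposited table. P4HB, protein disulfide isomerase itself, had a mean normalized count of 1684 and a log2 fold change of -0.45 (adjusted p = 0.0481, SE 0.18) in the authors' deposited table. P4HB lay just inside the threshold and lost its call when adjustment ran over all genes with a p-value (adjusted p = 0.0726) or fold changes were recentred (adjusted p = 0.0550).

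TXNDC5, another thioredoxin-domain isomerase, was the 1 member that rose. The gene (ENSG00000239264.8, chr6:7881517-7910814, minus strand) had a mean normalized count of 3618 and a log2 fold change of 0.35 (adjusted p = 4.36e-07, SE 0.06) in the authors' deposited table, 1.27-fold higher in the numerator group. Of its 31-base words, 60.4% also occur in the read-through gene BLOC1S5-TXNDC5, which had a mean normalized count of 9.41 in the authors' deposited table, so that the division of reads between these genes is uncertain. PDIA3 shares 21.7% of its 31-base words with other genes, mainly with the pseudogene PDIA3P1, and HSP90B1 shares 15.2%, mainly with HSP90B2P. Their means, 15.8 for PDIA3P1 and 5.18 for HSP90B2P in the authors' deposited table, were far below those of the parent genes.

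PDIA6 and the oxidases did not pass. PDIA6, a further isomerase, had a mean normalized count of 10119 and a log2 fold change of 0.01 (adjusted p = 0.899, SE 0.05) in the authors' deposited table, and its 95% interval of -0.08 to 0.10 excluded a fall the size of that of PDIA3. ERO1A, the oxidase that supplies disulfide bonds to the isomerases, had a log2 fold change of 0.12 (interval -0.02 to 0.26, mean 3362, adjusted p = 0.216) in the authors' deposited table. ERO1B, its paralogue, had a log2 fold change of -0.22 (interval -0.59 to 0.14, mean 233, adjusted p = 0.427) in the authors' deposited table. PDIA4, an isomerase with a mean of 17.9, was at -0.06 (adjusted p = 0.961, SE 0.59) in the authors' deposited table.

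Of 6 genes of ER-associated degradation, which sends misfolded proteins back to the cytosol, the ubiquitin ligase and 1 derlin fell and 0 rose. With 6 genes, these counts were not tested against the 14.8% lower and 14.7% higher over all tested genes. SYVN1 (HRD1), the ligase at the centre of the pathway, had a mean normalized count of 654 and a log2 fold change of -0.67 (adjusted p = 1.67e-08, SE 0.11) in the authors' deposited table. DERL2, a channel component, had a mean normalized count of 529 and a log2 fold change of -0.56 (adjusted p = 1.18e-06, SE 0.11) in the authors' deposited table. SYVN1 shares exonic sequence with FAU on its own strand and MRPL49 on the opposite one, whose log2 fold changes were -0.03 and -0.03 in the authors' deposited table. DNAJB11 shares 7.87% of its length with ENSG00000283149 on its own strand. Strand does not separate reads of genes that overlap on the same strand, and whether counting used strand is not given in the sources used here. HSP90B1, DNAJB11, CRELD2, PDIA3 and DERL2 also share exonic bases with a gene on the opposite strand (with SYVN1, from 2.24% to 14.8% of their length). Among members that did not pass, PDIA6 shares 25.2% of its length in this way with ATP6V1C2 (mean 71.7 in the authors' deposited table). The shares were 7.32% for SEC61A1 with RUVBL1, 5.59% for DERL1 with TBC1D31 and 6.45% for DNAJB9 with THAP5. Without strand, some reads of all these members cannot be assigned.

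The other 4 tested members of ER-associated degradation did not pass. HERPUD1, a stress-induced scaffold of the ligase, had a mean normalized count of 2425 and a log2 fold change of -0.00 (adjusted p = 0.997, SE 0.08) in the authors' deposited table. Its 95% interval of -0.16 to 0.16 left out a change the size of that of SYVN1 or DERL2. SEL1L, the adaptor of SYVN1, was at -0.29 (adjusted p = 0.637, SE 0.37, mean 71.3), and EDEM1, a mannosidase-like lectin, at -0.35 (adjusted p = 0.443, SE 0.30, mean 84.4) in the authors' deposited table. DERL1 was at 0.09 (adjusted p = 0.800, SE 0.19, mean 673) in the authors' deposited table.

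Of the 3 members of translocation and export, 0 passed, against 29.5% of all tested genes. A role of 3 genes is too small to compare with that share. SEC61A1 and SEC61B, subunits of the channel through which new chains enter the ER, had log2 fold changes of 0.04 (adjusted p = 0.963, SE 0.40, mean 101) and 0.24 (adjusted p = 0.768, SE 0.45, mean 36.3) in the authors' deposited table. SEC24D, a cargo adaptor of COPII vesicles, was at -0.26 (adjusted p = 0.769, SE 0.48, mean 101) in the authors' deposited table. The intervals of SEC61A1 (-0.74 to 0.82) and SEC24D (-1.20 to 0.68) hold falls like those of DNAJB11 and CALR, and that of SEC61B (-0.64 to 1.13) ends just short of them.

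**Figure D2:**
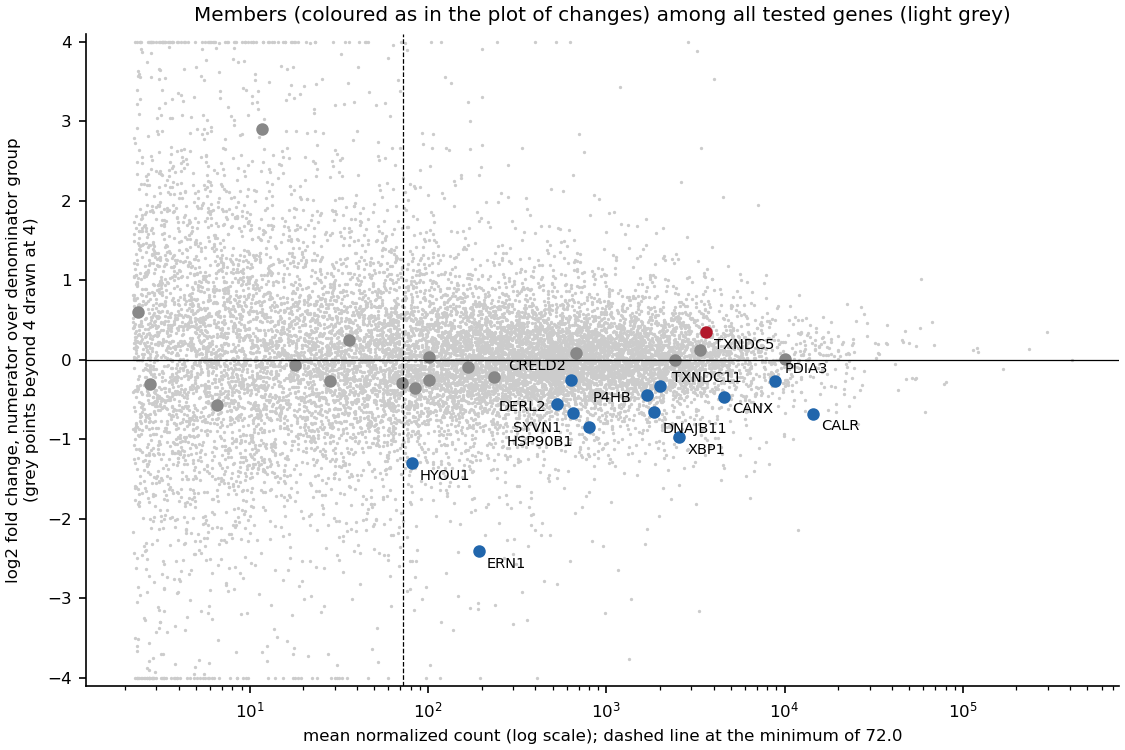
Log2 fold change against mean normalized count (log axis) for all 13957 tested genes (light grey) and the members (blue lower, red higher, dark grey not past the threshold), with a dashed line at a mean of 72.0. ERN1 lies at the lower edge of the genes of its abundance, HYOU1 follows at -1.30, and the other lower members are between -0.97 and -0.26.

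Levels can be compared between genes only per length. Dividing the deposited mean by exonic length (GENCODE 29), CALR led with 5313 normalized counts per kilobase, followed by PDIA6 with 2467 and PDIA3 with 2072. XBP1 stood at 843 per kilobase and its sensor ERN1 at 17.7 per kilobase. CANX (733 per kilobase), TXNDC5 (825) and HERPUD1 (470) lay within the upper range, while the Hsp70-like HYOU1 (10.5), EDEM1 (12.5) and SEL1L (7.45) were low, and DNAJB9 (2.31), DNAJC3 (2.10), SDF2L1 (2.15) and ATF6 (0.352) lowest. These are means over the libraries that enter the table, with no spread over samples, and whether they count all reads of a gene is not known.

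**Figure D3:**
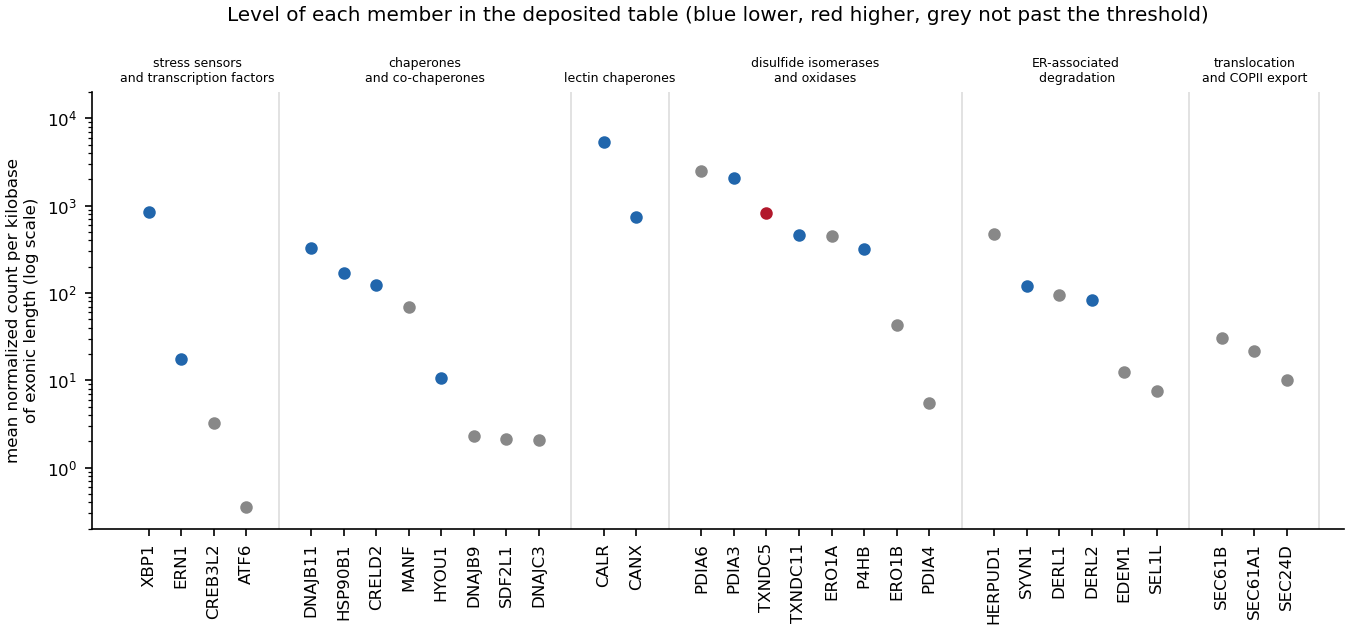
Mean normalized count per kilobase of exonic length (log axis) for each member, by role and in falling order, coloured by the call in the comparison. CALR stands highest at 5313 per kilobase and ATF6 lowest at 0.352.

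Promoter sequences were searched for the elements through which the pathway acts. Since genes of the XBP1 and ATF6 branches were chosen, some of them known for these elements, the shares below describe the list and are no independent result. RefSeq windows (GRCh38.p14) from 250 bases before to 50 after the transcription start were at hand for 29 of the 33 listed genes. The ER stress element (ERSE) was searched on both strands as CCAAT, 9 bases of any kind, then CCACG. It occurred in 8 of the 29 listed genes (27.6%), in each case upstream of at least 1 annotated start, against 0.0916% of all 27305 genes with windows. A second form, ERSE-II (ATTGG, 1 base, then CCACG), was found in 3 of the 29 (10.3%) against 0.0696% of all genes, and another motif, UPRE (TGACGTGG), in 3 (10.3%) against 0.927%. The UPRE matches were in HYOU1, TXNDC11 and TXNDC5, and that of HYOU1 overlaps 1 of its ERSE-II matches. The shorter cores CCACG and ACGTG, parts of the longer motifs, were in 75.9% and 48.3% of the listed genes with a window and in 42.1% and 24.9% of all genes.

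The ERSE matches are printed 5′ to 3′ on the strand of the gene, with 5 bases on each side and both conserved parts in capitals, to show how alike they are. Where the element lies on the other strand it reads CGTGG first and ATTGG second. HSPA5 is shown as the textbook case of the element and has no expression value here.
HSPA5: cttcaCCAATcggcggcctCCACGacggg
XBP1: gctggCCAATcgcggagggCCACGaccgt
HSP90B1, far: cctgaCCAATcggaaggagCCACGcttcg
HSP90B1, near: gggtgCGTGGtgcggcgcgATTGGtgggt
CALR: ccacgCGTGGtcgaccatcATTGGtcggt
CANX: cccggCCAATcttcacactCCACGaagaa
CRELD2: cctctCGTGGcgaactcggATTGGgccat
PDIA6: ccggaCCAATgagccgcagCCACGgcttg
ERO1B: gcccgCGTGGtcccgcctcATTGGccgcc
The stretches lie at chr9:125241386-125241414 (HSPA5, minus strand), chr22:28800598-28800626 (XBP1, minus), chr12:103930211-103930239 and chr12:103930316-103930344 (HSP90B1, plus), chr19:12938379-12938407 (CALR, plus), chr5:179698773-179698801 (CANX, plus), chr22:49918549-49918577 (CRELD2, plus), chr2:10812848-10812876 (PDIA6, minus) and chr1:236282178-236282206 (ERO1B, minus). Those of HSP90B1 and CANX overlap annotated exons. The element of CRELD2 is shared with the neighbouring gene ALG12, which is read in the opposite direction and had a log2 fold change of -1.51 (adjusted p = 0.236, SE 0.92) in the authors' deposited table.

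HYOU1, the member with the second largest fall, had 2 ERSE-II matches and a UPRE in the 250 bases before its start (chr11:119057206-119057455, minus strand), shown whole with the matched letters in capitals. HERPUD1 (chr16:56932020-56932040, plus) and SDF2L1 (chr22:21642109-21642129, plus) had 1 ERSE-II match each.
HYOU1: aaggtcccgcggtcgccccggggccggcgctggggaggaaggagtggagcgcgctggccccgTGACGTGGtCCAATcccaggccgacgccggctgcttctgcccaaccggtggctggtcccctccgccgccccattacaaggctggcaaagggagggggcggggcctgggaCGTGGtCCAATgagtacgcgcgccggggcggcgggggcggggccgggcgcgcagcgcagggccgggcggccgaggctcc
HERPUD1: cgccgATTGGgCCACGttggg
SDF2L1: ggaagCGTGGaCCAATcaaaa

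**Figure D4:**
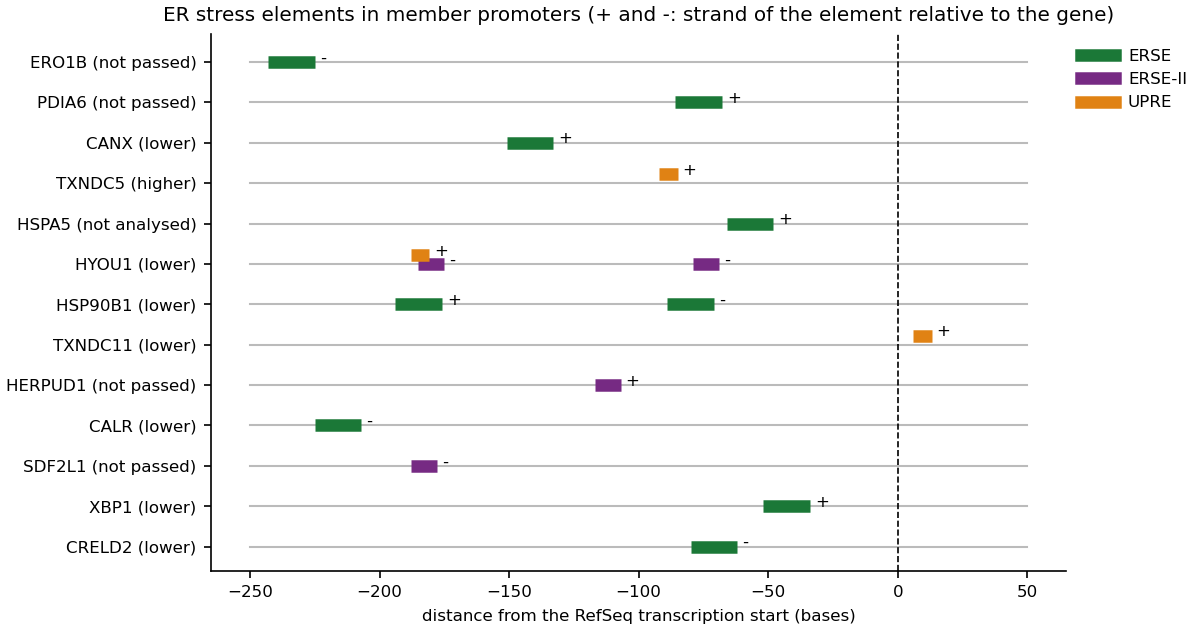
Position of ERSE (green), ERSE-II (purple) and UPRE (orange) matches relative to the RefSeq transcription start (dashed line, distance in bases) in the members that hold any, with the strand of the match and the call of the gene (CANX relative to 1 of its starts). Matches lie from near the far end of the window to just past the start. They occur in lower members (among them XBP1, CALR and HSP90B1), in members that did not pass (PDIA6, HERPUD1, ERO1B, SDF2L1) and, as a UPRE, in the higher member TXNDC5.

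Falls were seen among members with and without such an element. For comparison, 14.8% of all tested genes were lower and 14.7% higher. The promoter counts that follow were not tested against these shares or against each other. Of 10 tested members with an ERSE or ERSE-II, 6 were lower, with a median log2 fold change of -0.36, and of 18 members whose windows held neither, 6 were lower, with a median of -0.30. ERN1, SYVN1 and DNAJB11 fell without a match in their windows, while PDIA6 and HERPUD1 carried one and were at 0.01 and -0.00 in the authors' deposited table. Among other tested genes with an ERSE, 2 of 7 were lower, namely EIF2A at -0.19 (adjusted p = 0.000607, SE 0.05) and SERP1, a stress-associated ER protein, at -0.34 (adjusted p = 0.0172, SE 0.12), and 1 was higher, TRIM5 at 0.30 (adjusted p = 0.0239, SE 0.11), in the authors' deposited table. Among 13 other tested genes with an ERSE-II, RAD9A was lower and CAMTA1 higher. A match describes letters only, and the absence of one says nothing of binding outside these windows.

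Related genes outside the list were counted from 11 lists of the same compartment and of heat shock proteins outside it. Every list count below is to be set beside the shares over all tested genes, 14.8% lower and 14.7% higher. The PERK branch had 4 of 9 tested genes higher and 1 lower, and the other 4 missed the threshold, with a median log2 fold change of 0.12, against 14.7% higher and 14.8% lower over all genes. No test of the difference from other genes was made. The death receptor gene TNFRSF10B was at 1.14 (adjusted p = 1.47e-16, SE 0.13), the transcription factor gene ATF3 at 1.33 (adjusted p = 0.0424, SE 0.53) and the pro-apoptotic BBC3 at 0.63 (adjusted p = 0.00393, SE 0.19) in the authors' deposited table. The fourth that rose was ATF4 itself, at 0.51 (adjusted p = 2.33e-14, SE 0.06), while DDIT3 (CHOP) was at -0.04 (adjusted p = 0.911, SE 0.19) in the authors' deposited table, and both were named after their values were seen. TNFRSF10B, ATF3 and BBC3 are also known targets of p53.

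The remaining sensors, processing proteases and partner factors had 3 of 12 lower and 1 higher (median -0.16). They included MBTPS1, a protease that releases ATF6, at -0.43 (adjusted p = 0.0276, SE 0.16), and 2 subunits of NF-Y in opposite directions, NFYB at 0.37 (adjusted p = 0.00602, SE 0.11) and NFYC at -0.25 (adjusted p = 0.000877, SE 0.07), in the authors' deposited table. PERK itself, EIF2AK3, had a mean normalized count of 25.9 and a log2 fold change of -0.48 (adjusted p = 0.640, SE 0.62) in the authors' deposited table, and was likewise named after its value was seen.

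Of the machinery that moves chains into the ER and glycosylates them, 14 of 33 genes were lower and 3 higher, with a median of -0.28, the largest share of falls among the ER lists with more than 10 tested genes. TRAM1, a translocon partner, was at -1.42 (adjusted p = 0.000813, SE 0.37), SRPRB, a subunit of the receptor for the signal recognition particle, at -0.66 (adjusted p = 1.70e-19, SE 0.07), and SEC61A2, a second channel subunit, at 0.63 (adjusted p = 0.0147, SE 0.22) in the authors' deposited table. ER-phagy receptors, which deliver pieces of ER to lysosomes, had 5 of 9 lower and 1 higher (median -0.28). Among them CCPG1 was at -0.76 (adjusted p = 6.12e-17, SE 0.09), TEX264 at -0.52 (adjusted p = 5.53e-07, SE 0.10) and RETREG1 (FAM134B) at 0.57 (adjusted p = 0.00796, SE 0.18) in the authors' deposited table.

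Other degradation genes had 5 of 23 lower and 0 higher (median -0.18), with HERPUD2 at -1.10 (standard error 0.25), the lectin ERLEC1 at -0.76 (standard error 0.28) and the signal peptide peptidase HM13 at -0.73 (standard error 0.07) in the authors' deposited table. HERPUD2 thus fell where its relative HERPUD1 did not pass, and the difference between them was not tested. Other chaperones and prolyl isomerases had 5 of 20 lower and 3 higher (median -0.17). SIL1, an exchange factor for BiP like HYOU1, rose, at 0.78 (standard error 0.19), as did the isomerase FKBP7 at 0.75 (standard error 0.22), and MZB1, a co-chaperone known from B cells, fell, at -0.76 (standard error 0.11), in the authors' deposited table. Other disulfide oxidoreductases had 3 of 15 lower and 1 higher (median -0.19), with the sulfhydryl oxidases QSOX2 at 0.65 (standard error 0.07) and QSOX1 at -0.26 (standard error 0.10) and the thioredoxin-domain gene TXNDC15 at -0.34 (standard error 0.08) in the authors' deposited table.

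The glycoprotein folding cycle had 2 of 11 lower and 0 higher (median -0.10). These were UGGT1, the folding sensor that returns glycoproteins to calnexin and calreticulin, at -0.44 (standard error 0.08), and the mannosidase MAN1A2 at -0.25 (standard error 0.07) in the authors' deposited table. COPII and other export genes had 5 of 24 lower and 2 higher (median -0.04), with TMED10, a cargo receptor, at -0.76 (standard error 0.16), the coat subunit SEC31B at -0.44 (standard error 0.17) and the coat GTPase SAR1A at 0.68 (standard error 0.08) in the authors' deposited table. Genes of ER calcium handling had 6 of 17 lower and 4 higher (median -0.11), with the release channel ITPR1 at 1.22 (standard error 0.34), the calcium pump ATP2A1 at 0.91 (standard error 0.26) and SELENON at 0.57 (standard error 0.21) in the authors' deposited table. Heat shock proteins outside the ER, mostly cytosolic and including the mitochondrial HSPA9, HSPD1 and HSPE1, had 3 of 20 lower and 3 higher (median 0.00), with the co-chaperone CHORDC1 at -0.91 (standard error 0.13), the small heat shock protein HSPB1 at 0.66 (standard error 0.17) and BAG3 at 0.55 (standard error 0.16) in the authors' deposited table. Over the 10 ER lists together, 48 of 171 tested genes were lower and 19 higher, with a median of -0.14.

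**Figure D5:**
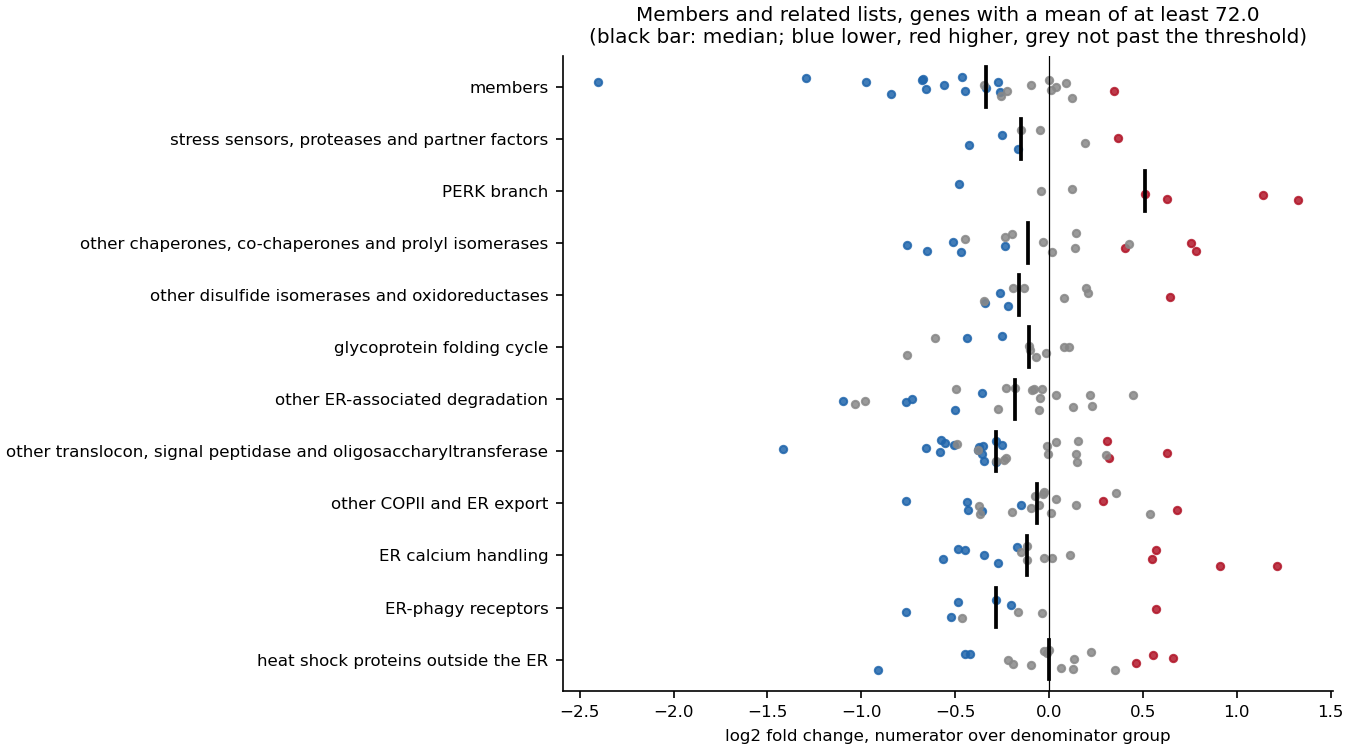
Log2 fold change of members and of genes of the 11 related lists with a mean of at least 72.0 (one point per gene, blue lower, red higher, grey not past the threshold, black bar the median). The members' median is -0.33, and heat shock proteins outside the ER (the lowest row) have theirs at 0.00. The PERK branch has its median above 0, at 0.51 over the 7 genes drawn and 0.12 over its 9 tested genes.

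How far the calls carry depends on how the deposited errors are read. All statistics of the table were spread 2.03 times as widely as a standard normal, and with errors widened by that factor 7 members stayed lower, against 4.27% of all genes. The 7 were ERN1, XBP1, DNAJB11, HSP90B1, CALR, CANX and SYVN1, whereas HYOU1, CRELD2, P4HB, PDIA3, TXNDC11, DERL2 and TXNDC5 lost their calls.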

How the data were processed

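The data are 1 deposited table of 33644 genes with 6 value columns and no values per sample. The submitters' processing notes name STAR, Salmon and hg38, and no roles. Per the file headers, the authors' table holds a mean normalized count (a signal over all libraries entering it), a log2 fold change with its log2 standard error, a Wald statistic (a score, deposited as their ratio), a deposited p-value and a deposited adjusted p. The column names are those of a DESeq2 results table. Planned tests on per-sample values could not be run, so the deposited test was used at an adjusted p of 0.05, over the 13957 genes that have one. The members and lists were chosen with earlier results of these data known, so no list was tested. Intervals are 95% (normal).

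All members were named, with up to 3 genes per related list past the threshold, largest change first, at a mean of at least 72.0 (5 per 1000000 of the summed means). Gene models, lengths and 31-base words came from GENCODE 29. Library depths are not known. The median standard error was 0.11 for the 23 members at or above that mean and 0.77 for the 8 below. Calculations used Python 3.11.15, numpy 2.4.6, pandas 2.3.3, scipy 1.17.1 and matplotlib 3.10.9, and the adjustment was tested on simulated data. Promoters are from RefSeq (GRCh38.p14) and the XBP1 stretch from GENCODE 29, and protein sequences were not used here. Alternatives were a stricter threshold, 3 other gene sets for adjustment, a test against a 1.5-fold change, widened errors and recentring.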

Additional observations from a re-analysis of the deposited data

How the results depend on the processing

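No paired analysis was possible because the table has no values per sample, and the replicate block, leaving out each replicate and a second count tool or normalization were not run for the same reason. The count of lower members was 13 as deposited. It was 2 (ERN1 and XBP1) in a test against a 1.5-fold change and 7 with errors widened by the spread of all statistics, and the count of higher members, 1 as deposited, was 0 in both. Under the threshold of 0.01 it was 11 lower and 1 higher, without CRELD2 and P4HB, and the other adjustments and recentring gave 12 or 13 lower and 1 higher. ERN1 and XBP1 kept their calls under all 7 of these alternatives. The median of the members was -0.27 as deposited, -0.33 among those with a mean of at least 72.0 and -0.26 after recentring by -0.01, and the count of 8 listed genes with an ERSE was the same upstream of the start only. No member changed direction past the threshold. Wide errors limit the 8 members with a mean below 72.0.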
